A study of Mus musculus with 6 samples.

Results

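The 8 genes described here encode the subunits of AMP-activated protein kinase (AMPK) and the kinases that switch it on: the beta subunit genes Prkab1 and Prkab2, the alpha subunit genes Prkaa1 and Prkaa2, the gamma subunit genes Prkag1 and Prkag2, and the activating kinase genes Stk11 and Camkk2. They are 8 of the 22564 genes in the deposited table and were found there by symbol. Prkab1 was chosen because earlier results of these libraries had placed it higher in the IGF2BP1 pull-down than in both controls, so its levels and folds are given as a description, with no test. The other 7 members were taken because they are its paralogues and partners. All 8 had enough fragments to enter the fit across genes.

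The libraries came from RNA immunoprecipitation sequencing of mouse cultured germ stem cells, in which an antibody captures a protein from a lysate and the RNA held by that protein is sequenced. All 3 groups shared the same cells and the same MEM-α/StemPro-34 medium with GDNF and FGF2 at 10 ng/ml each, and each group held 2 libraries: RNA captured with an IGF2BP1 antibody (IGF2BP1 RIP), RNA captured with a control antibody (IgG RIP), and the uncaptured starting RNA (input). The labels name no strain, animal age, genotype or feeder cells and do not say that replicates came from separate cultures, so p-values here reflect just the spread among these libraries, which may be technical. A level in the input is the RNA of a whole culture, in which fewer cells of a type and less RNA per cell cannot be told apart.

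AMPK is a trimer of a catalytic alpha subunit, a beta subunit that scaffolds the complex and can bind glycogen, and a gamma subunit that binds adenine nucleotides and so reads the energy state of the cell. The kinases LKB1 (gene Stk11) and CaMKK2 phosphorylate the alpha subunit, and active AMPK turns down fat and protein synthesis and turns up the use of fuel. In mice, loss of the alpha subunit gene Prkaa1 impairs sperm motility. IGF2BP1 is an RNA-binding protein that binds many mRNAs and is known for effects on their stability, location and translation.

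Fragments on genes numbered 2793425 and 2836942 for IGF2BP1 RIP, 2558673 and 2723451 for IgG RIP, and 1639251 and 1693165 for input. Levels are given as CPM, in which TMM puts the fragments of every library on 1 scale. The 2 IgG RIP libraries stood apart from each other: the biological coefficient of variation, the spread between replicates beyond counting noise, was 50.4% in IgG RIP against 7.76% in IGF2BP1 RIP and 6.76% in input. Every comparison below that uses IgG RIP rests on those libraries. The fit of all 6 libraries shares 1 spread per gene, so its p-values for IGF2BP1 RIP against input carry the IgG RIP spread too. That fit called 719 of 12053 genes in IGF2BP1 RIP against input, and the fit of those 2 groups alone called 4094 of 11338. A gene not called against input is therefore not shown to be unchanged. All 12 markers of undifferentiated spermatogonia were tested, with a summed level of 1949 to 1994 CPM in input, 2069 to 2173 in IgG RIP and 2456 to 2462 in IGF2BP1 RIP. All 6 markers of the germ cell list were tested too, with sums of 2654 to 2754, 1888 to 1967 and 2171 to 2362 CPM. All 8 fibroblast markers (3251 to 3369 CPM in input, 3465 to 4074 in IgG RIP, 3557 to 3644 in IGF2BP1 RIP) and 7 of 8 macrophage and blood markers (421 to 431, 489 to 544 and 595 to 618 CPM) were tested as well (the other one, Adgre1, was not matched by symbol), and the part of these cells in the members' levels was not tested. Leydig cell markers were near 0, at a summed 1.78 to 5.82 CPM, and Sertoli cell markers at 34.9 to 52.0 CPM, with 2 of 6 tested. These sums lean on single genes that did not all move alike, given here for IGF2BP1 RIP, IgG RIP and input in turn. Cd68 stood at 339 and 333, 198 and 254, and 164 and 157 CPM. Fcer1g stood at 27.7 and 25.8, 109 and 92.3, and 38.4 and 30.2 CPM. Sycp1 stood at 191 and 250, 205 and 225, and 532 and 535 CPM. Dazl stood at 803 and 880, 794 and 662, and 1187 and 1129 CPM. Tdrd1 stood at 324 and 354, 188 and 225, and 182 and 197 CPM. Mael stood at 453 and 480, 345 and 334, and 390 and 341 CPM. Sox9 held most of the Sertoli sum.

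Prkab1 encodes the beta 1 scaffold subunit (ENSMUSG00000029513, GRCm38 chromosome 5, 116009316 to 116024508, minus strand), and its span is shared with no other gene of the table. It had 241 and 226 fragments with the IGF2BP1 antibody, 80 and 47 with IgG, and 47 and 59 in the uncaptured RNA. Scaled to library size these were 85.7 and 79.8 CPM, 31.0 and 17.6 CPM, and 29.1 and 34.9 CPM. Both IGF2BP1 RIP libraries lay above all 4 control libraries, which overlapped each other. The mean level was 82.8 ± 4.18 CPM in IGF2BP1 RIP, 24.3 ± 9.53 in IgG RIP and 32.0 ± 4.10 in input (SD, n = 2 each). That is 3.40 times the IgG RIP mean and 2.58 times the input mean. The fitted log2 fold changes were 1.77 ± 0.29 against IgG RIP and 1.37 ± 0.30 against input (SE), and the IgG RIP value against input was -0.40 ± 0.31. These comparisons share libraries and are not independent of each other. Without IgG RIP replicate 2 the fold against IgG RIP was 1.41, and without IgG RIP replicate 1 it was 2.23.

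Prkab1 was not at the top of the pull-down: of the 12053 genes tested, 363 had a higher fold against IgG RIP and 108 a higher fold against input. Since the choice of Prkab1 used these contrasts, nothing is read from the backgrounds that follow. Of all genes tested, 3.29% were called higher against IgG RIP and 2.21% against input at an adjusted p under 0.05. The overlap of both lists, from which Prkab1 was taken, held 70 genes, or 0.581%. Both IGF2BP1 RIP libraries lay above all 4 controls for 13.9% of genes.

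**Figure D1:**
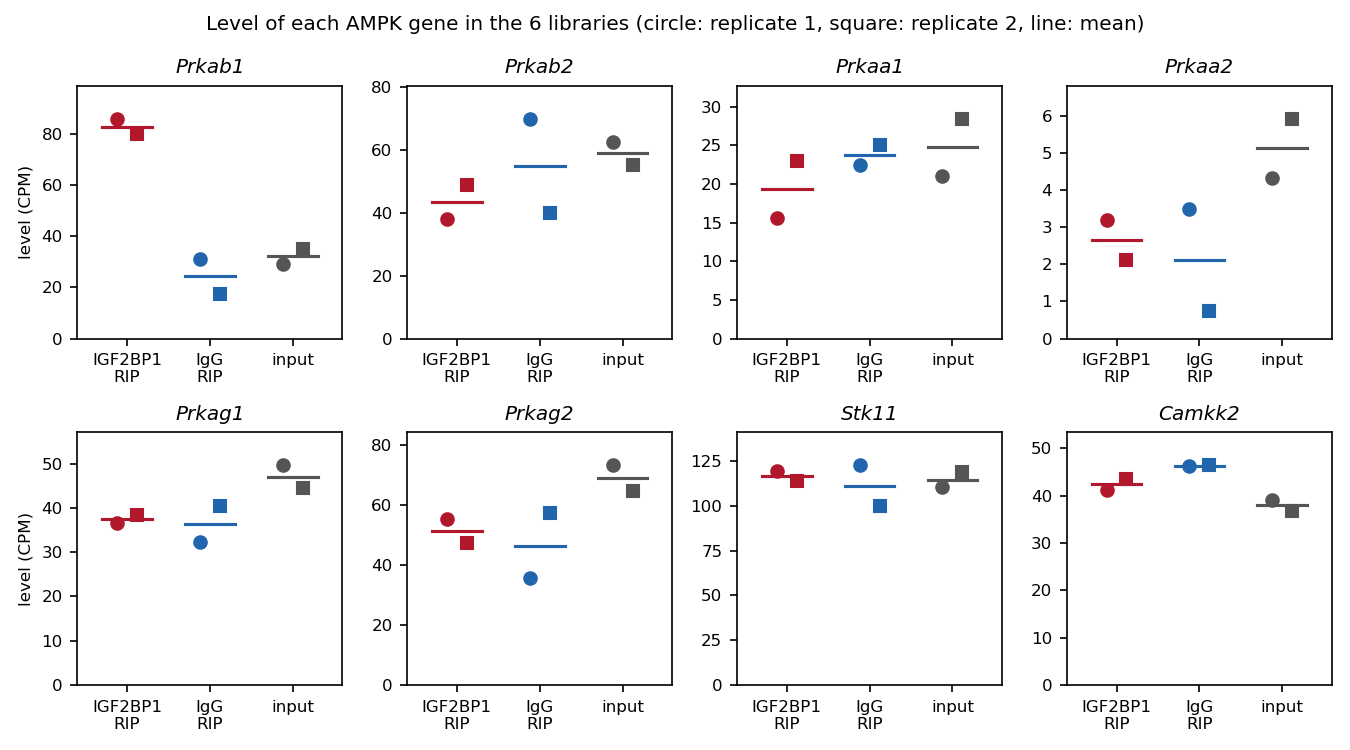
Level of each of the 8 genes in each library, in CPM on a linear axis from 0 with its own range for each gene; circles are replicate 1, squares replicate 2 and lines the means of the 3 groups. Prkab1 stands at 79.8 and 85.7 CPM in IGF2BP1 RIP against 17.6 to 34.9 CPM in the 4 control libraries, and no other member has both IGF2BP1 RIP libraries above all 4 controls.

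Prkab2 encodes the beta 2 subunit, which takes the place of beta 1 in the trimer (ENSMUSG00000038205, chromosome 3, 97658193 to 97674694, plus strand). Its span is shared with Gm17651, so the split of fragments between them is uncertain. Its levels were 38.1 and 48.7 CPM for IGF2BP1 RIP, 69.8 and 40.0 for IgG RIP and 62.6 and 55.1 for input, from 93 to 180 fragments a library. The IGF2BP1 RIP libraries lay within or below the range of the controls, where Prkab1 lay above it. The log2 fold change was -0.34 ± 0.30 against IgG RIP (95% interval -1.04 to 0.36; edgeR quasi-likelihood, adjusted p = 0.533), -0.44 ± 0.30 against input (adjusted p = 0.494) and -0.10 ± 0.30 for IgG RIP against input (adjusted p = 0.874). Fits without 1 IgG RIP library leave that group with a single library, assumed to vary like the much tighter IGF2BP1 RIP and input groups, and they called far more genes. Without IgG RIP replicate 2 the value against IgG RIP was -0.69 (edgeR, adjusted p = 0.00444), where 44.6% of all genes were called. The value against input was also called in the fit of those 2 groups alone (-0.44, adjusted p = 0.0437), where 36.1% of genes were called (17.0% higher, 19.1% lower), and without IgG RIP replicate 2 (adjusted p = 0.0475), where 34.0% were. For IgG RIP against input it was called without IgG RIP replicate 1 (-0.54, adjusted p = 0.0397), where 46.4% were.

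The beta paralogues were also set against each other within a library, which removes differences in depth. As the share contains Prkab1, which was chosen for its level in these libraries, it is a description and not independent of that choice. Prkab1 took 69.3% (95% Wilson interval 64.2 to 73.9) and 62.1% (57.0 to 66.9) of the beta fragments in the IGF2BP1 RIP libraries. In IgG RIP it took 30.8% (25.5 to 36.6) and 30.5% (23.8 to 38.2), and in input 31.8% (24.8 to 39.6) and 38.8% (31.4 to 46.7). These intervals cover counting error only, and a share of raw fragments does not give the order of genes of unequal length. In IgG RIP, where the levels of both genes were 0.79 higher on the log2 scale in replicate 1 than in replicate 2, the 2 shares were nearly equal. The log2 ratio of Prkab1 over Prkab2 was 0.94 ± 0.33 in IGF2BP1 RIP, -1.18 ± 0.012 in IgG RIP and -0.88 ± 0.32 in input (SD, n = 2 each).

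Per length, with fragments divided by a relative transcript length that the table implies (2.29 times as long for Prkab2 as for Prkab1), the beta 1 share was 81.4% ± 3.40 in IGF2BP1 RIP, 50.3% ± 0.208 in IgG RIP and 55.4% ± 5.40 in input (SD, n = 2 each). In each of the 6 libraries beta 1 held more than 50% per length: 83.8% and 79.0% in IGF2BP1 RIP, 50.5% and 50.2% with IgG, and 51.6% and 59.2% in input. Groups of 2 libraries could not give a two-sided exact permutation p under 0.333. The IGF2BP1 RIP mean was higher by 31.1 percentage points than IgG RIP and by 25.9 than input. Taken from deposited FPKM instead, the differences were 36.5 and 19.6 points, and beta 1 held 46.8% and 42.1% with IgG and 61.6% and 61.0% in input.

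**Figure D2:**
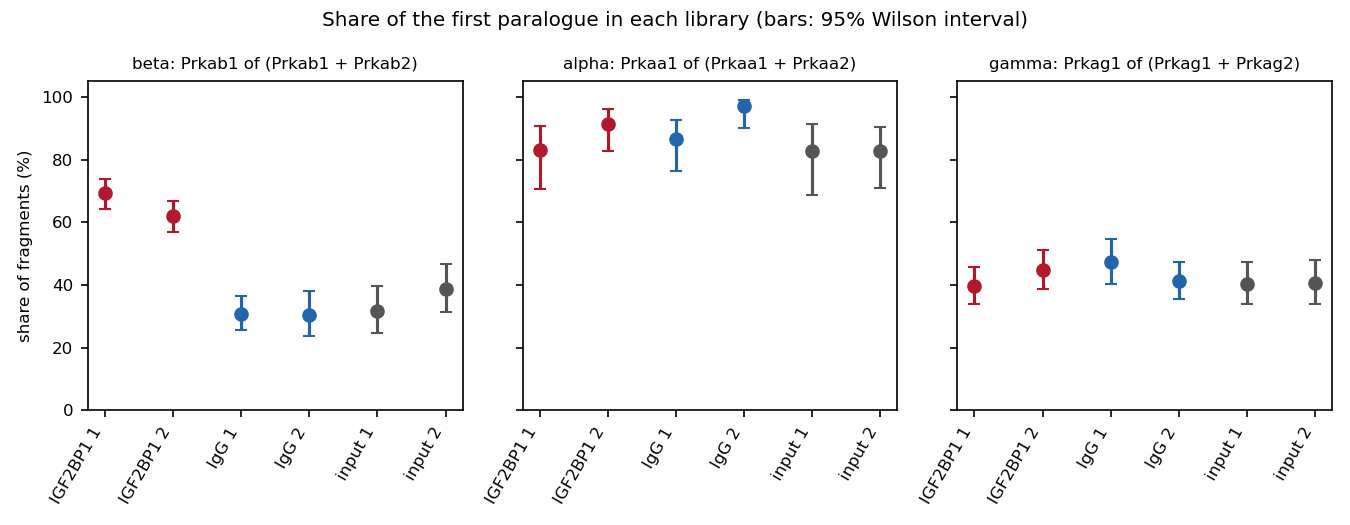
Share of Prkab1 among beta, Prkaa1 among alpha and Prkag1 among gamma subunit fragments in each library, in percent, with 95% Wilson intervals as bars. The beta 1 share is 69.3% and 62.1% in IGF2BP1 RIP against 30.5% to 38.8% in the 4 control libraries, while the alpha 1 share runs from 82.8% to 97.1% and the gamma 1 share from 39.8% to 47.4% over the 6 libraries.

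Among the catalytic subunits, alpha 1 was the main transcript. Prkaa1 (ENSMUSG00000050697, chromosome 15, 5143861 to 5244187, plus strand) shares its span with Ttc33 and Ptger4. It stood at 15.6 and 23.0 CPM for IGF2BP1 RIP, 22.5 and 25.0 for IgG RIP and 21.1 and 28.4 for input, from 34 to 67 fragments a library. The 3 groups overlapped each other, and the lowest of the 6 levels, 15.6 CPM, was in IGF2BP1 RIP. The log2 fold change was -0.30 ± 0.34 against IgG RIP and -0.36 ± 0.35 against input, with edgeR adjusted p of 0.639 and 0.647. IgG RIP differed from input by -0.059 ± 0.35 (adjusted p = 0.938).

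Prkaa2, the alpha 2 gene (ENSMUSG00000028518, chromosome 4, 105029874 to 105109890, minus strand), had 9 and 6 fragments for IGF2BP1 RIP, 9 and 2 for IgG RIP, and 7 and 10 for input. These are 3.20 and 2.12, 3.49 and 0.748, and 4.34 and 5.92 CPM. All 4 pull-down libraries lay below both input libraries, as they did for 16.3% of genes. At this depth only a large difference could show: the interval of the log2 fold change against IgG RIP ran from -1.98 to 2.63 around 0.33 (edgeR, adjusted p = 0.873). Against input it was -0.94 ± 0.97 (adjusted p = 0.672), and IgG RIP differed from input by -1.26 ± 0.99 (adjusted p = 0.465). Without IgG RIP replicate 1 the last value was -2.69 (adjusted p = 0.0308), in a fit that called 46.4% of all genes and had the 2 fragments of IgG RIP replicate 2 as its only IgG value. The alpha 1 share of fragments was 83.0% and 91.5% for IGF2BP1 RIP, 86.6% and 97.1% for IgG RIP, and 82.9% and 82.8% for input. Per length, its group means differed by -2.84 percentage points between IGF2BP1 RIP and IgG RIP and by 2.86 between IGF2BP1 RIP and input. Between IgG RIP and input they differed by 5.70, and the SDs were up to 4.59. The relative length of Prkaa2 rests on 1 library, input replicate 2, the only one with at least 10 fragments.

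The gamma subunits sense AMP and ATP. Prkag1, the gamma 1 gene (ENSMUSG00000067713, chromosome 15, 98803782 to 98831508, minus strand, span shared with Ddn), stood at 36.6 and 38.5 CPM for IGF2BP1 RIP, 32.2 and 40.4 for IgG RIP and 49.6 and 44.4 for input. All 4 pull-down libraries lay below both input libraries, as they did for 16.3% of genes. The log2 fold change was 0.049 ± 0.23 against IgG RIP, -0.32 ± 0.23 against input and -0.37 ± 0.23 for IgG RIP against input, with edgeR adjusted p of 0.918, 0.510 and 0.355.

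Prkag2, the gamma 2 gene (ENSMUSG00000028944, chromosome 5, 24862744 to 25100642, minus strand, span shared with 1500035N22Rik), stood at 55.5 and 47.3 CPM for IGF2BP1 RIP, 35.7 and 57.2 for IgG RIP and 73.2 and 64.6 for input. It too was lower in the 4 pull-down libraries than in both input libraries, as 16.3% of genes were. The IGF2BP1 RIP and IgG RIP libraries overlapped. Its log2 fold change was 0.14 ± 0.26 against IgG RIP (adjusted p = 0.783), -0.42 ± 0.26 against input (adjusted p = 0.445) and -0.57 ± 0.27 for IgG RIP against input (edgeR, adjusted p = 0.227). The IgG RIP libraries lay on either side of both IGF2BP1 RIP libraries. Without IgG RIP replicate 2 the value against IgG RIP became 0.53 (edgeR, adjusted p = 0.0363), in the fit that called 44.6% of all genes. For IgG RIP against input the same omission gave -0.95 (adjusted p = 7.81e-04), where 43.4% of all genes were called; the lone IgG RIP library is again assumed to vary like the tighter groups. Against input, Prkag2 was called lower in IGF2BP1 RIP in the fit of those groups alone (-0.43, edgeR adjusted p = 0.0308). That fit called 36.1% of genes (17.0% higher, 19.1% lower). Prkag2 was also lower against input when IgG RIP replicate 1 or replicate 2 was left out, which leaves 1 IgG RIP library. The gamma 1 share of fragments ran from 39.8% to 47.4% over the 6 libraries. Per length, its group means lay within 3.88 percentage points of each other, with SDs of up to 4.33.

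Stk11 encodes LKB1, the main upstream kinase of AMPK and a tumour suppressor (ENSMUSG00000003068, chromosome 10, 79697305 to 80369637, plus strand). The file's span is shared with 45 other genes, so its fragments may include theirs. It was the member with the most fragments, 178 to 336 a library, and had the smallest SE. It stood at 119.5 and 114 CPM for IGF2BP1 RIP, 123 and 99.8 for IgG RIP and 110.4 and 119 for input. The groups overlapped in every comparison. The log2 fold change was 0.069 ± 0.15 against IgG RIP (95% interval -0.28 to 0.42), 0.023 ± 0.15 against input and -0.045 ± 0.15 for IgG RIP against input, with edgeR adjusted p of 0.823, 0.962 and 0.890.

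Camkk2 encodes the calcium-dependent activating kinase (ENSMUSG00000029471, chromosome 5, 122731173 to 122779410, minus strand). It stood at 41.3 and 43.4 CPM for IGF2BP1 RIP, 46.2 and 46.4 for IgG RIP and 39.1 and 36.7 for input. The order IgG RIP, IGF2BP1 RIP, input held without overlap, and it was the only member among the other 7 whose pull-down libraries all lay above both input libraries, as they did for 14.3% of genes. All the same, no comparison passed the test: the log2 fold change was -0.13 ± 0.20 against IgG RIP, 0.16 ± 0.21 against input and 0.29 ± 0.21 for IgG RIP against input, with edgeR adjusted p of 0.748, 0.755 and 0.430.

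**Figure D3:**
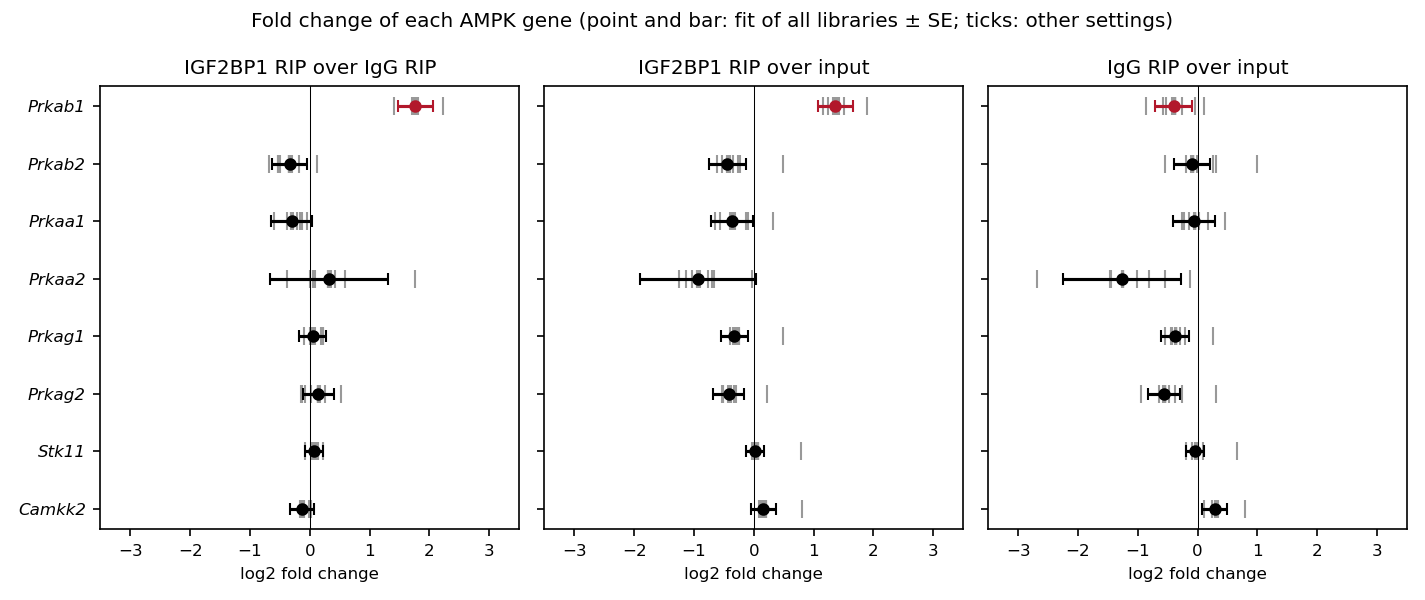
Log2 fold change of each member in the 3 comparisons (x axis); points with bars are the edgeR fit of all 6 libraries ± SE, and grey ticks are the alternative settings, 15 for each gene except Prkaa2, which has 13. Prkab1 stands at 1.77 against IgG RIP and 1.37 against input, while the other 7 members lie between -0.34 and 0.33 against IgG RIP.

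Of the 7 members other than Prkab1, edgeR called 0 in any of the 3 comparisons, and 0 had an unadjusted edgeR p under 0.05. DESeq2 called 0 too, but it gave Prkaa2 no adjusted p in any comparison. It also gave none to Prkaa1 in IGF2BP1 RIP against input. Across all genes, edgeR called 7.07% in IGF2BP1 RIP against IgG RIP, 5.97% in IGF2BP1 RIP against input and 9.09% in IgG RIP against input. At those shares 7 genes would hold fewer than 1 call, so 0 calls by edgeR lies near the background. An unadjusted p under 0.05 was more common, and the 0 for it is a description. It was reached by 1477 genes higher and 1568 lower, 1166 and 1339, and 1546 and 1655, in the same order, of 12053. DESeq2 called 356 higher and 458 lower, 348 and 526, and 540 and 552. For the 7 members the median log2 fold change was 0.049, -0.36 and -0.10 in the same order, against -0.014, 0.0012 and -0.0024 for all genes. Counting libraries that did not overlap, 1 of the 7 was apart against IgG RIP (Camkk2, lower), where 52.0% of genes were (27.4% higher, 24.7% lower). Against input 5 of the 7 were apart (Prkaa2, Prkab2, Prkag1 and Prkag2 lower, Camkk2 higher), where 66.8% of genes were (33.5% higher, 33.4% lower). For IgG RIP against input 4 of the 7 were apart (Prkaa2, Prkag1 and Prkag2 lower, Camkk2 higher), where 53.8% of genes were (25.3% higher, 28.5% lower). Prkaa2, with its few fragments, is left aside here. In the fit of all 6 libraries, the 95% intervals of the remaining 6 ended at or below 0.76 against IgG RIP and 0.65 against input (log2). That bounds a rise gene by gene in that fit only, and does not show that the 6 behaved alike. With the 2 groups alone, the interval of Prkag2 against IgG RIP reached 0.90, and that of Camkk2 against input 0.53.

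**Figure D4:**
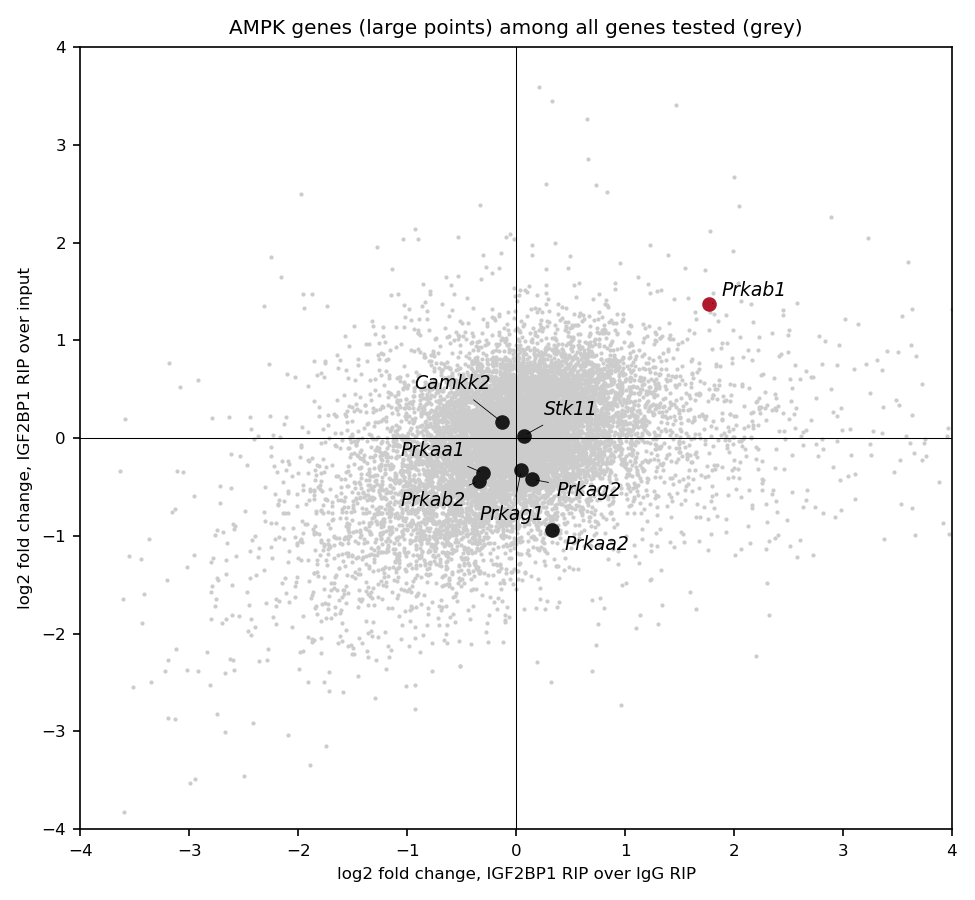
Log2 fold change of IGF2BP1 RIP against IgG RIP (x axis) and against input (y axis) for the 12053 genes tested in grey, of which 104 lie beyond the axes, with the 8 members as large points. Both axes share the IGF2BP1 RIP libraries, so the slope of the cloud is not a result; Prkab1 lies at 1.77 and 1.37 and the other members between -0.34 and 0.33 on the x axis.

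Levels of different genes can be compared only per length and, in this table, only within a library. By deposited FPKM, Prkab1 stood at 40.4 and 37.8 for IGF2BP1 RIP, 15.9 and 7.01 for IgG RIP, and 9.71 and 9.87 for input. Its rank among the 8 was 2 in both IGF2BP1 RIP libraries, behind Stk11 (45.1 and 53.8 FPKM), 3 and 5 in IgG RIP, and 4 in both input libraries. Its share of the summed FPKM of the 8 genes was 27.3% and 24.4%, then 14.0% and 4.98%, then 11.9% and 11.5%. In input, Stk11 led at 27.1 and 29.0 FPKM, followed by Prkag2 (17.5 and 20.6) and Prkag1 (15.0 and 13.5). Below Prkab1 came Prkab2 at 6.05 and 6.31, Camkk2 at 3.70 and 3.49, Prkaa1 at 2.08 and 2.82, and Prkaa2 at 0.246 and 0.337 FPKM. Prkag2's place in this order is uncertain, because its FPKM was 12.5 and 44.2 in the IgG RIP libraries while its CPM were 35.7 and 57.2.

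The genes whose 6 library levels followed Prkab1 most closely were found among 7203 genes with a mean CPM at least 50% of its own, by the root mean square difference of log2 CPM (prior count 2) after each gene was centred on its mean. They were Tagap1 (0.24), Ubap1 (0.29), G6pdx (0.30), Pcp4l1 (0.31) and Ppme1 (0.33). Ubap1 encodes a subunit of the ESCRT-I sorting complex, G6pdx, whose span is shared with another gene, the entry enzyme of the pentose phosphate pathway, and Ppme1 a methylesterase of the phosphatase PP2A. Their log2 fold changes against IgG RIP were 1.41, 1.33, 1.32, 1.07 and 1.67, and against input 1.02, 0.79, 1.03, 0.89 and 0.67. They were picked for likeness to a gene chosen on these values, so their folds are a description. The other members were not near: Stk11 was the closest at 0.75, with 25.5% of tested genes nearer than it, Prkab2 lay at 0.94, with 58.7% nearer, and Prkaa1 was the farthest at 0.97.

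A list of 51 further genes of the AMPK pathway was read from the same fit, and 49 were tested. Prkag3, the gamma 3 gene known from skeletal muscle, had 0 fragments in all libraries, which allows up to 3 in each, and Ppargc1a, a coactivator of mitochondrial genes, had 0 to 2. Against IgG RIP, 0 of 49 were called higher and 1 was called lower in IGF2BP1 RIP, where 3.29% and 3.78% of all genes were. That gene was Lamtor1, which anchors the Ragulator complex to the lysosome, where AMPK can be activated. It stood at 55.8 and 53.7 CPM for IGF2BP1 RIP, 118 and 113 for IgG RIP and 59.5 and 64.6 for input, so both IgG RIP libraries stood above the other 4. Its log2 fold change was -1.07 ± 0.16 (edgeR, adjusted p = 0.0118; 0.0609 in the fit of those 2 groups alone, where 1.23% of genes were called, 0.317% higher and 0.916% lower). Lamtor1 shares its span with another gene.

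Against input, 3 of 49 (6.12%) rose in IGF2BP1 RIP and 0 fell, where 2.21% and 3.76% of all genes did. Sik3, an AMPK-related kinase that LKB1 activates, stood at 240.1 and 262 CPM for IGF2BP1 RIP, 199 and 234 for IgG RIP and 130.2 and 149 for input (log2 fold change against input 0.85 ± 0.13, edgeR adjusted p = 0.0147). Acaca, the acetyl-CoA carboxylase that AMPK inhibits, stood at 223 and 195, 235 and 259, and 140.2 and 137 CPM (0.59 ± 0.12, adjusted p = 0.0320). Tsc2, a brake on mTORC1 that AMPK activates, stood at 109 and 109, 147 and 128, and 66.4 and 68.1 CPM (0.69 ± 0.15, adjusted p = 0.0399). For these 3 genes, picked as called above input, all 4 pull-down libraries lay above both input libraries, as they did for 14.3% of genes. None of the 3 passed against IgG RIP (log2 fold changes 0.21, -0.24 and -0.34, edgeR adjusted p = 0.345, 0.238 and 0.186). Acaca and Tsc2 share their spans with other genes.

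The control pull-down itself differed from input at more of these genes: 7 of 49 (14.3%) were higher in IgG RIP than in input and 0 were lower, where 4.19% and 4.90% of all genes were. They were Tsc2 (1.03, edgeR adjusted p = 0.0102), Acaca (0.84, adjusted p = 0.0100), Sik3 (0.63, adjusted p = 0.0302), Lamtor1 (0.89, adjusted p = 0.0191), the microtubule-affinity kinase Mark4 (1.16, adjusted p = 0.0150), the second acetyl-CoA carboxylase Acacb (1.12, adjusted p = 0.0445) and the lipid synthesis factor Srebf1 (1.00, adjusted p = 0.0492). In the fit of those 2 groups alone, of these only Acaca (adjusted p = 0.0422) and Tsc2 (adjusted p = 0.0494) held, where 2.29% of all genes were called, 1.09% higher and 1.20% lower. The median log2 fold change over the 49 genes was 0.045 against IgG RIP, 0.24 against input and 0.15 for IgG RIP against input, where all genes had -0.014, 0.0012 and -0.0024. By role, the 19 tested AMPK substrates and the 13 AMPK-related kinases each had a median of 0.38 against input, and -0.090 and -0.084 against IgG RIP. Of the 4 partners of the LKB1 complex, the 5 genes of adenine nucleotide balance, the 2 other activating kinases and the 2 phosphatases acting on AMPK, 0 were called in the 3 comparisons. Over all genes 7.07%, 5.97% and 9.09% were, so with so few genes the 0 is no result about these roles.

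**Figure D5:**
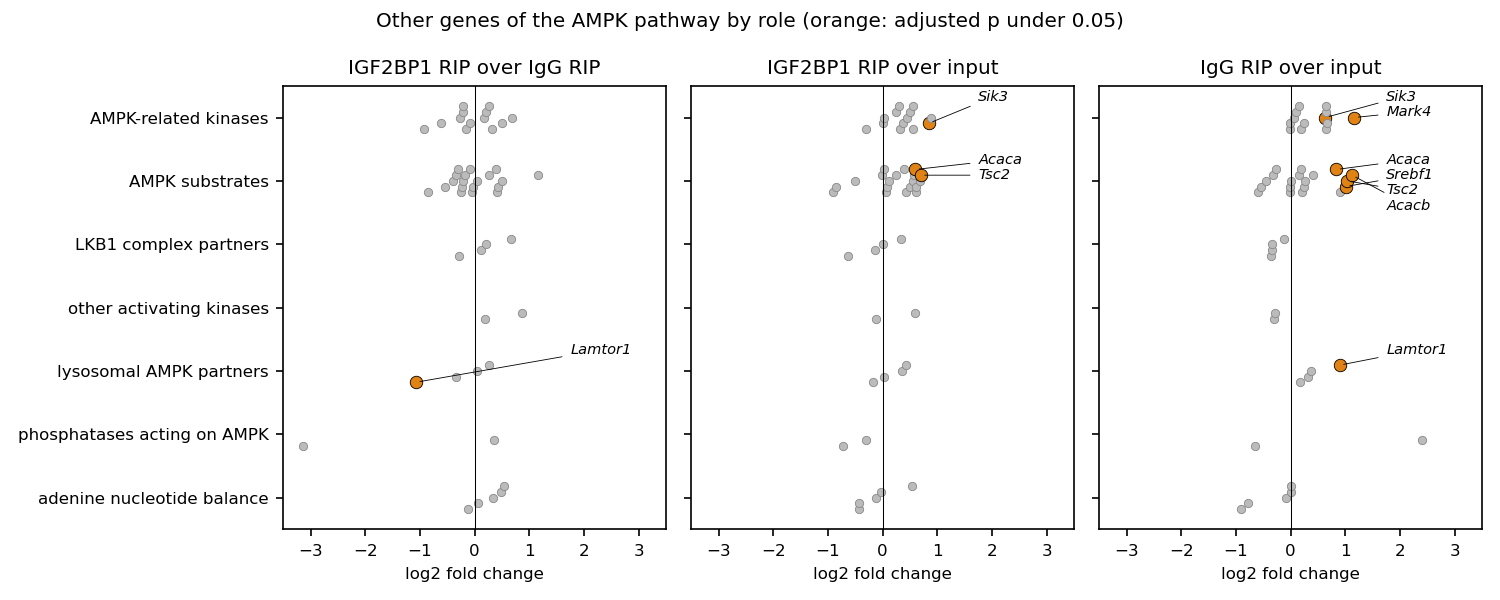
Log2 fold change (x axis) of the 49 tested pathway genes in the 3 comparisons, grouped by role; each point is a gene, and orange points with names were called at an adjusted p under 0.05. Called genes number 1 for IGF2BP1 RIP against IgG RIP (Lamtor1, lower), 3 against input (Sik3, Acaca and Tsc2, higher) and 7 for IgG RIP against input, all higher.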

How the data were processed

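The members and lists were chosen with earlier results of these data known. The tools named are cutadapt 1.9.3 and FastQC, with build mm39, per the submitters' processing notes; which aligner and counter were run is not given in the sources used here. The coordinates of 99.909% of 20874 matched genes overlap GRCm38, so they are printed as GRCm38. The deposited count columns were read as estimated counts of fragments multiplied by 1 step per library: 92.8% to 94.4% of values were whole multiples within 0.01. The step (0.954 to 1.03) was divided out and the result rounded. The FPKM columns are the authors' deposited values; their totals ran with depth, so they were compared within a library. A relative transcript length was the median over libraries of count over FPKM, where a gene had at least 10 fragments.

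edgeR 4.0.16 (R 4.3.3; filterByExpr by group, TMM, quasi-likelihood test) was fitted to all 6 libraries with 1 term per group, leaving 3 residual degrees of freedom, and adjusted over 12053 genes by Benjamini-Hochberg, with calls under 0.05. The SE is the log2 fold change over the root of its F. Shares carry 95% Wilson intervals. The fit was tested on simulated data in which all libraries had the same spread, unlike the unequal spread of the groups here. Alternatives were the 2 groups alone, DESeq2 1.42.0, RLE size factors, other filters, undivided counts, limma 3.58.1 on log2(FPKM + 1) with and without centring, a replicate block, and leaving out each library. Named were all members, the 5 genes nearest Prkab1, every pathway gene called and those that could not be tested. The labels give no batch. Of the 45 marker genes, 44 were matched by symbol. The Wilson intervals cover counting error only, and the edgeR intervals include the spread between libraries.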

Additional observations from a re-analysis of the deposited data

How the results depend on the processing

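Over 15 alternatives the log2 fold change of Prkab1, which was chosen on these contrasts, ran from 1.41 to 2.23 against IgG RIP and from 1.17 to 1.89 against input. The calls behind that choice did not hold in every setting. With DESeq2 or RLE size factors Prkab1 was called against both controls. It was not called against IgG RIP with the 2 groups alone or on log2(FPKM + 1), centred or not. With a replicate block it was not called against input. Prkaa2 had 13 alternatives, since it did not enter the stricter filter or the fit of 2 groups alone. Genes called higher and lower numbered 396 and 456 (IGF2BP1 RIP against IgG RIP), 266 and 453 (IGF2BP1 RIP against input) and 505 and 591 (IgG RIP against input). With the 2 groups alone they were 37 and 107, 1925 and 2169, and 124 and 137. On log2(FPKM + 1) they were 229 and 134, 3248 and 69, and 2870 and 144, and after centring 168 and 135, 15 and 75, and 121 and 312. Leaving out single libraries gave 8 to 2980 and 38 to 2681, 1 to 2021 and 14 to 2153, and 0 to 2591 and 0 to 2999. With a replicate block, 253 genes were called higher against IgG RIP and 1 pathway gene against input. Other counts stayed within 1.5 times those of the main fit. Over the genes tested, same-numbered libraries did not visibly deviate together (correlations -0.0039, 0.0024 and 0.0095). That cannot show whether they were prepared together, which the labels do not say.

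Pathway genes called against IgG RIP numbered 1 higher with DESeq2 (0 to 13 without single libraries); lower, 0 with the 2 groups alone, 3 on FPKM and 4 after centring (0 to 13). Against input, 17 were higher with the 2 groups alone, 21 on FPKM and 0 after centring (0 to 17), and 4 lower with the 2 groups alone (0 to 3). For IgG RIP against input, 2 were higher with the 2 groups alone and 15 on FPKM (0 to 16), and 0 to 9 were lower without single libraries. Some of these fits called a large part of all genes. With the 2 groups alone, 17.0% of genes were higher and 19.1% lower against input, where 17 and 4 of 48 pathway genes were. For IgG RIP against input, the fit of those 2 groups called 1.09% higher. On FPKM, 3248 of 12053 genes were higher against input, 2870 higher for IgG RIP against input and 134 lower against IgG RIP. After centring, 135 were lower against IgG RIP. The upper ends of the ranges came from fits without 1 IgG RIP library, which called far more genes. The beta 1 share differed by 36.5 points from IgG RIP on FPKM and by 35.0 without length. On FPKM it differed by 19.6 from input, and by -16.9 between IgG RIP and input. The gamma 1 share differed by 4.94 from IgG RIP on FPKM.

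Uncentred FPKM carries depth: the median of all genes moved by 0.68 against input. On that scale, signs turned against IgG RIP for Camkk2 (0.022) and Prkag2 (-0.087, and -0.13 centred); against input for Prkaa1 (0.33), Prkab2 (0.49), Prkag1 (0.49) and Prkag2 (0.22); and for IgG RIP against input for Prkaa1 (0.46), Prkab1 (0.11), Prkab2 (0.99, and 0.30 centred), Prkag1 (0.26), Prkag2 (0.31) and Stk11 (0.66). Stk11 was also called there against input (0.79, limma adjusted p = 0.0240) and for IgG RIP against input (adjusted p = 0.0417). Leaving out single libraries turned the sign of some values: against IgG RIP, Prkaa2 ran from -0.39 to 1.76, Prkab2 from -0.69 to 0.12, Prkag1 from -0.10 to 0.22, Prkag2 from -0.15 to 0.53 and Stk11 from -0.073 to 0.22; against input, Stk11 from -0.030 to 0.079; for IgG RIP against input, Prkaa1 from -0.26 to 0.17, Prkab2 from -0.54 to 0.25 and Stk11 from -0.19 to 0.095. The cause of these turns was not tested. Prkaa2, at 2 to 10 fragments a library, is the member that depth limits most.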

Other observations

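Ulk1, the autophagy kinase that AMPK phosphorylates, had 256 and 258 fragments in IGF2BP1 RIP, 218 in IgG RIP replicate 2, and 100 and 96 in input, and was listed at 0 in IgG RIP replicate 1. It was singled out after its values were seen. Genes listed at 0 in 1 library with at least 50 fragments in every other numbered 3 in IgG RIP replicate 1 and 1 in IgG RIP replicate 2, and 0 in each of the remaining libraries.

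For Prkag2, the ratio of deposited count to FPKM, which would be constant if the length used were the same, was 7.52 in IgG RIP replicate 1 and 3.30 in IgG RIP replicate 2. The highest ratio over the 6 libraries was 2.28 times the lowest, a spread that 11.0% of 9427 genes exceeded. For Prkab1 it was 1.30 times, for Prkab2 1.66 times and for Stk11 1.59 times, where the median gene had 1.18, and for Prkaa1 and Camkk2 1.01. These ratios were chosen after their values were seen, and their cause was not tested.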
